A study of Homo sapiens with 15 samples.

Results

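ICAM1 and 9 genes of the NF-kB pathway were followed across the doses of ZJ-101 in MDA-MB-231 cells, a human triple-negative breast cancer line. The 9 genes are the subunit genes RELA, RELB, NFKB1 and NFKB2, the inhibitor genes NFKBIA, NFKBIE and TNFAIP3, and the target genes BIRC3 and TRAF1. They were found by their symbols and make up 10 of the 59608 genes in the table of normalized read counts. ICAM1 was chosen for its fall in these same libraries, so its values are a description and carry no p. The other 9 were chosen by their roles in the pathway, with earlier results of these data known. They were tested within a fit over all genes.

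ZJ-101 is a synthetic, truncated analog of superstolide A, a macrolide from a marine sponge. Cells of the 1 line were kept in 2D culture and received either the DMSO vehicle or ZJ-101 at 0.5, 5, 50 or 500 nM for 6 h. Each of the 5 groups held 3 biological replicates, which gave 15 libraries with 12415519 to 15284762 reads on genes. No agent that activates NF-kB is named for any group. The levels are those of transcripts, and the activity of NF-kB was not measured in these libraries. Of 7 genes taken as marks of the line, VIM, CD44, EGFR, CAV1, AXL and MSN were high in all groups and SPARC averaged 3.6 normalized counts. Of the 3 receptor genes taken as low in a triple-negative line, ESR1 averaged 0.74 and PGR 13.7, while ERBB2 averaged 1211. The leukocyte marker PTPRC averaged 1.4. Mitochondrial genes took 0.889% to 2.06% of the reads, and the ranges of the 5 groups overlapped. Replicate 2 at 0.5 nM was the library whose omission gave the largest share of genes called at 5, 50 and 500 nM. The ICAM1 difference at 0.5 nM and the counts of the 9 other genes called lower against DMSO are therefore also given without it.

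NF-kB transcription factors are dimers of RELA, RELB, REL and the proteins made from NFKB1 and NFKB2. In resting cells inhibitor proteins of the IkB family hold the dimers in the cytoplasm, and kinases downstream of cytokine receptors mark the inhibitors for destruction. The freed dimers switch on target genes, among them the adhesion molecule ICAM1 and several genes that feed back on the pathway. NFKBIA, NFKBIE and TNFAIP3 encode inhibitors of the pathway. BIRC3 encodes a ubiquitin ligase and TRAF1 an adaptor protein, both of the TNF receptor complex. Basal-like lines such as MDA-MB-231 are known for NF-kB activity without added cytokine. The comparison asks whether the lower ICAM1 transcript level came with lower levels of the other genes that NF-kB regulates.

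The upstream sequences of ICAM1, NFKBIA and BIRC3 are shown because the transcripts of these genes were lower at both 50 and 500 nM. Each run holds the 250 bases before a RefSeq start site on GRCh38.p14, 5′ to 3′ on the strand of the gene, and capitals mark each match to GGAAANNCC on either strand. These letters are a short form of the site that NF-kB dimers bind, and they were chosen after the promoters had been read.
ICAM1, chr19:10270870-10271119, plus strand: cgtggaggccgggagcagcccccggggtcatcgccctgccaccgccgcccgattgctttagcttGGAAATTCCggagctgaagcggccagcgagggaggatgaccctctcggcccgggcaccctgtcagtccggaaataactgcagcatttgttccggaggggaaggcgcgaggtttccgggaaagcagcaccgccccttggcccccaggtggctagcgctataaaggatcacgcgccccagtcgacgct
NFKBIA, chr14:35404750-35404999, minus strand: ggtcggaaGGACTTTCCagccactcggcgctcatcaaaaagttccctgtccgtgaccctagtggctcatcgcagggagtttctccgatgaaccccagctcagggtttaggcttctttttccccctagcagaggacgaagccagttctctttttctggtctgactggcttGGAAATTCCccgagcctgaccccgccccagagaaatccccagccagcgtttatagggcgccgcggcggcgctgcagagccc
BIRC3, chr11:102317234-102317483, plus strand: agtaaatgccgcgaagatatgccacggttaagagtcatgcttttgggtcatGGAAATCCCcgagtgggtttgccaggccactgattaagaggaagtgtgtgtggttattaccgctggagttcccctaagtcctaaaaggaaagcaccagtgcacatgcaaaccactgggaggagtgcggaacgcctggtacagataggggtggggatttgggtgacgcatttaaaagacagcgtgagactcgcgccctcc

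The same letters stood near the start sites of member genes whose transcripts did not pass the test, and windows of 30 bases around 4 of these matches are shown for that contrast.
NFKB1, chr4:102501301-102501330, plus strand: gacgtcagtgGGAATTTCCagccaggaagt
NFKB2, chr10:102395675-102395704, plus strand: ggtattttcgGGACTTTCCtaagctgctct
TNFAIP3, chr6:137867182-137867211, plus strand: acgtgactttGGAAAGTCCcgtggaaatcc
TNFAIP3, chr6:137867194-137867223, plus strand: aaagtcccgtGGAAATCCCcgggcctacaa

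The match of ICAM1 began 186 bases before its start site, that of BIRC3 199 bases before, and those of NFKBIA 81 and 242 bases before. The match of NFKB1 began 48 bases before the start site and those of TNFAIP3 67 and 55 bases before. Of the 10 genes, 8 had an entry in the promoter table, with 14 start sites in all. Counting the 250 bases before and the 50 bases after each start, the letters occurred in 8 of these 14 promoters, which belong to 7 of the 8 genes, RELA being the exception. The same letters occurred in 6.25% of all 34943 promoters of the same length. Since they were chosen after the member promoters had been read, these shares do not test whether the members hold more of them. The longer kappaB consensus, which overlaps these letters at several of the sites, occurred in 6 of the 14 promoters, which belong to 5 of the 8 genes (not to ICAM1, RELA or TRAF1), and in 11.3% of all promoters. Matches were thus present both in genes that fell and in genes that did not pass the test, and they show letters only, not bound sites.

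On GRCh38 with GENCODE release 44, ICAM1 lies on chr19:10271093-10286615 on the plus strand. Of its exon bases, 25.4% are shared with genes on the opposite strand, 23.6% with the lncRNA gene ICAM4-AS1 and 1.77% with LIMASI. Whether the counting used strand is not stated, so how reads on the shared bases were assigned or left out is not known. NFKBIA lies on chr14:35401079-35404749 (minus strand), NFKBIE on chr6:44258166-44265788 (minus) and TNFAIP3 on chr6:137867214-137883314 (plus). RELA lies on chr11:65653599-65663090 (minus), RELB on chr19:45001461-45038192 (plus), NFKB1 on chr4:102501330-102617302 (plus) and NFKB2 on chr10:102394110-102402524 (plus). BIRC3 lies on chr11:102317484-102339403 (plus) and TRAF1 on chr9:120902393-120929173 (minus). None of the 10 genes had a transcript of another gene that covered at least 50% of its own with at least 95% identity.

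ICAM1, the ligand on the cell surface that leukocyte integrins bind, was lower at every dose. Its normalized counts in the DMSO libraries were 958, 860 and 814. They were 614, 541 and 639 at 0.5 nM, 628, 685 and 715 at 5 nM, 337, 465 and 362 at 50 nM, and 237, 231 and 271 at 500 nM. Every treated library lay below every DMSO library, the libraries at 0.5 and 5 nM overlapped each other, and those at 50 and at 500 nM formed separate, lower ranges. The means were 877 ± 73.8 (SD, n = 3) in DMSO, 598 ± 51.2 at 0.5 nM, 676 ± 44 at 5 nM, 388 ± 67.8 at 50 nM and 246 ± 21.7 at 500 nM. At 500 nM the mean was 28.1% of that in DMSO.

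On the scale of log2(normalized count + 1), ICAM1 differed from DMSO by -0.55 at 0.5 nM, -0.37 at 5 nM, -1.19 at 50 nM and -1.83 at 500 nM, with a standard error of 0.10 for each difference. Between neighbouring doses, where no DMSO library enters, the differences were 0.18 from 0.5 to 5 nM (95% CI -0.04 to 0.40), -0.81 from 5 to 50 nM (-1.03 to -0.59) and -0.64 from 50 to 500 nM (-0.86 to -0.42). Since ICAM1 was chosen for its fall in these libraries, these intervals describe the spread between replicates and are no test. In the means, the fall had a first part at 0.5 nM, no further fall at 5 nM and 2 further steps above it. The slope over the dose ranks, from 0 for DMSO to 4 for 500 nM, was -0.43 log2 units per rank (SE 0.04). Without 0.5 nM replicate 2, the lowest ICAM1 library of its group, the difference at 0.5 nM was -0.48.

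**Figure D1:**
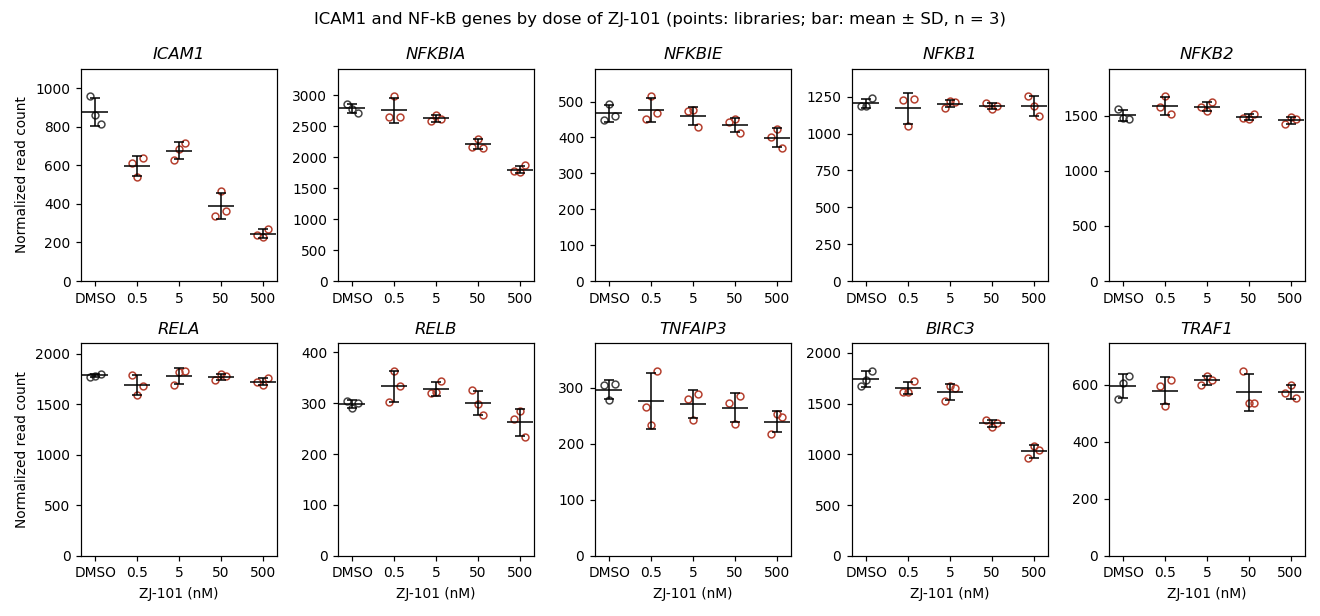
Normalized read count of ICAM1 and the 9 NF-kB genes (vertical axes from 0) against the dose of ZJ-101 in nM, with open points for the 3 libraries of each group and a bar for their mean ± SD. ICAM1 falls from a mean of 877 to 246, NFKBIA from 2790 to 1802 and BIRC3 from 1742 to 1029, while the means of NFKB1, NFKB2, RELA and TRAF1 at 500 nM lie within 4% of those in DMSO.

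Among the inhibitors of the pathway, NFKBIA fell at the higher doses. NFKBIA encodes IkB-alpha, which holds RELA-containing dimers in the cytoplasm and is itself a target of NF-kB. Its normalized counts were 2867, 2779 and 2724 in DMSO, 2647, 2986 and 2644 at 0.5 nM, and 2581, 2687 and 2625 at 5 nM. They were 2175, 2302 and 2156 at 50 nM and 1773, 1764 and 1870 at 500 nM. The 0.5 nM libraries overlapped those of DMSO, the 5 nM libraries lay just below them, and the 50 and 500 nM libraries lay in 2 separate lower ranges.

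For NFKBIA the log2 difference from DMSO was -0.02 ± 0.05 (SE) at 0.5 nM and -0.08 ± 0.05 at 5 nM, with adjusted p of 0.92 and 0.51. It was -0.34 ± 0.05 at 50 nM (adjusted p = 1.6e-04) and -0.63 ± 0.05 at 500 nM (adjusted p = 2.7e-08) in limma. At 500 nM the level fell by 35.4%. The steps from 5 to 50 nM (-0.25, adjusted p = 0.0042) and from 50 to 500 nM (-0.29, adjusted p = 0.0024) passed the test as well. These calls were kept under all 25 alternatives.

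NFKBIE, which encodes the related inhibitor IkB-epsilon, was lower by a smaller amount. Its normalized counts were 449, 494 and 460 in DMSO, 443, 451 and 413 at 50 nM, and 402, 425 and 372 at 500 nM. All 3 libraries at 500 nM lay below those of DMSO, and the 0.5, 5 and 50 nM libraries overlapped those of DMSO. The log2 difference at 500 nM was -0.23 ± 0.07 (adjusted p = 0.034), and the slope was -0.06 per rank (adjusted p = 0.016). The call at 500 nM was lost when DMSO replicate 2 (adjusted p = 0.15) or 3 (0.067), or 500 nM replicate 1 (0.073) or 3 (0.16), was left out, and that on the slope without 500 nM replicate 3 (0.076).

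TNFAIP3, which encodes the ubiquitin-editing enzyme A20 that shuts down signalling to NF-kB, did not pass the test. Its normalized counts were 306, 278 and 307 in DMSO, 267, 233 and 330 at 0.5 nM, and 218, 254 and 247 at 500 nM. All 3 libraries at 500 nM lay below all 3 of DMSO, while those at 0.5 nM spanned a wider range than any other group of this gene. The log2 difference at 500 nM was -0.31 ± 0.11 (95% CI -0.55 to -0.07) with an adjusted p of 0.068. With 0.5 nM replicate 2 left out the adjusted p was 0.026, without 0.5 nM replicate 3 it was 0.029, and with the 6 libraries of both groups alone it was 0.013, at the same difference.

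Of the target genes among the 10, BIRC3 fell and TRAF1 did not pass the test. BIRC3 encodes the ubiquitin ligase cIAP2 of the TNF receptor complex and was lower from 50 nM on. Its normalized counts were 1669, 1736 and 1821 in DMSO, 1615, 1618 and 1721 at 0.5 nM, and 1522, 1671 and 1649 at 5 nM. They were 1338, 1271 and 1311 at 50 nM and 960, 1086 and 1042 at 500 nM. As for NFKBIA, the libraries at 0.5 nM overlapped those of DMSO, and the libraries at 50 and 500 nM lay in separate lower ranges.

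For BIRC3 the log2 difference from DMSO was -0.08 ± 0.05 at 0.5 nM (adjusted p = 0.55), -0.11 ± 0.05 at 5 nM (0.41), -0.41 ± 0.05 at 50 nM (4.6e-05) and -0.76 ± 0.05 at 500 nM (7.6e-09). At 500 nM the level fell by 40.9%. The steps from 5 to 50 nM (-0.30, adjusted p = 0.0019) and from 50 to 500 nM (-0.35, adjusted p = 0.0013) passed, and these calls were kept under all 25 alternatives. TRAF1, which encodes an adaptor that binds cIAP proteins, had normalized counts of 551, 607 and 632 in DMSO and 573, 600 and 553 at 500 nM. These ranges overlapped, and the log2 difference was -0.05 (95% CI -0.22 to 0.11).

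Of the subunit genes, none passed the test at any dose. RELA, which encodes the p65 subunit, had 1772, 1783 and 1800 normalized counts in DMSO and 1724, 1686 and 1762 at 500 nM. The libraries at 500 nM lay below those of DMSO, by a log2 difference of -0.05 (95% CI -0.15 to 0.05, adjusted p = 0.54). NFKB1, which encodes p105 and p50, had 1186, 1188 and 1238 counts in DMSO and 1253, 1188 and 1117 at 500 nM, with overlapping ranges and a difference of -0.02 (95% CI -0.15 to 0.10).

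NFKB2, which encodes p100 and p52 of the non-canonical branch, had 1562, 1485 and 1471 counts in DMSO and 1425, 1488 and 1471 at 500 nM, again overlapping, with a difference of -0.04 (95% CI -0.14 to 0.05). RELB, the partner of p52, had 305, 290 and 301 counts in DMSO, 319, 322 and 344 at 5 nM, and 269, 285 and 233 at 500 nM. Its libraries lay above those of DMSO at 5 nM and below them at 500 nM, with log2 differences of 0.14 (adjusted p = 0.56) and -0.19 (95% CI -0.37 to -0.01, adjusted p = 0.15). The intervals of RELA, NFKB1, NFKB2 and TRAF1 at 500 nM exclude a fall of the size seen for NFKBIA or BIRC3.

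**Figure D2:**
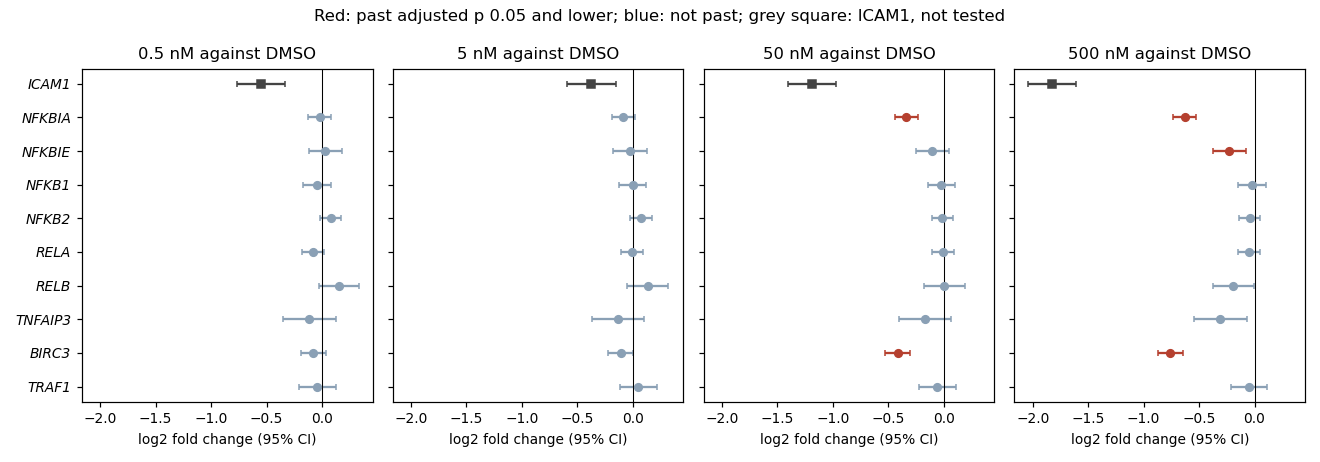
log2 fold change against DMSO with its 95% confidence interval for the 10 genes at each of the 4 doses. The intervals of ICAM1, which was chosen for its fall, are a description and no test. ICAM1 (grey squares) lies left of 0 at all 4 doses, from -0.55 at 0.5 nM to -1.83 at 500 nM, NFKBIA and BIRC3 (red where past the test) leave 0 at 50 nM, and NFKB1, NFKB2, RELA and TRAF1 stay near 0.

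Counted over the 9 genes chosen by role, 0 were called at 0.5 or 5 nM in limma, with 0 at an unadjusted p under 0.05 at either dose. Since earlier results of these data were known when the 9 were chosen, their counts are not independent evidence of a direction. Of all 13561 genes tested, 0.922% were called lower at 0.5 nM and 1.71% at 5 nM, and 0.251% and 0.465% were called higher. At 50 nM, 2 of the 9 (NFKBIA and BIRC3) were lower where 3.71% of all genes were, and at 500 nM, 3 of the 9 (with NFKBIE) were lower where 10.1% of all genes were. Leaving out 1 library moved these shares: the share called lower at 0.5 nM lay between 0.0885% (without DMSO replicate 1) and 2.05% (without 0.5 nM replicate 3), and that at 5 nM between 0.649% (without DMSO replicate 1) and 3.13% (without 0.5 nM replicate 2). The share at 50 nM lay between 2.63% (without 50 nM replicate 1) and 5.43%, and that at 500 nM between 7.59% (without DMSO replicate 2) and 12.2%, both highest without 0.5 nM replicate 2. Without that library 0, 0, 2 and 4 of the 9 were lower at the 4 doses, TNFAIP3 being added at 500 nM. None of the 9 was called higher at 50 or 500 nM, against 2.29% and 7.69% of all genes. The libraries of 6 of the 9 lay wholly below those of DMSO at 500 nM, where the same held for 19.6% of all genes. At 50 nM this held for 2 of the 9 and 13.2% of all genes, at 5 nM for 1 of the 9 and 12.7%, and at 0.5 nM for 0 of the 9 and 10.7%, while RELB lay wholly above at 5 nM, as did 10.5% of all genes. The median log2 difference of the 9 was -0.04, -0.004, -0.06 and -0.19 at the 4 doses, and that of all genes tested was within 0.01 of 0 at each.

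All comparisons with a dose above share the 3 DMSO libraries, so the steps between neighbouring doses were counted too. From 0.5 to 5 nM, 0 of the 9 were called lower in limma, with 0 at an unadjusted p under 0.05, beside 0.0885% of all genes. From 5 to 50 nM and from 50 to 500 nM, NFKBIA and BIRC3 were lower, beside 2.39% and 1.80% of all genes. On the slope over the ranks, NFKBIA (-0.16 per rank, adjusted p = 2.4e-06), BIRC3 (-0.19, 1.2e-06) and NFKBIE passed, beside 9.33% of all genes that were lower.

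At 0.5 nM the mean of ICAM1 was 68.2% of that in DMSO, and the 95% intervals of NFKBIA (-0.12 to 0.09) and BIRC3 (-0.19 to 0.04) at that dose did not reach the value of -0.55 of ICAM1. Since ICAM1 was chosen for its fall, the difference between it and the other genes was not tested.

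Levels of different genes were set side by side as the normalized count per kilobase of the union of a gene's exons. This union takes in the exons of every annotated transcript, 15679 bases for NFKB1 and 3448 for ICAM1. The order therefore depends on the annotation too. Before this division NFKB1 had a mean of 1204 in DMSO and ICAM1 877. In DMSO the order was NFKBIA (822), RELA (327), NFKB2 (270), ICAM1 (254), BIRC3 (233), NFKBIE (181), TRAF1 (133), RELB (99.7), NFKB1 (76.8) and TNFAIP3 (46.1). ICAM1 overlapped its neighbours NFKB2 and BIRC3 in this order, and the libraries of all other neighbours lay apart. At 500 nM NFKBIA, RELA and NFKB2 kept the first 3 places, with 531, 316 and 262 per kilobase. ICAM1 stood at 71.5 in place 9, where its libraries overlapped those of NFKB1 (75.7), and TNFAIP3 stood last at 37.2.

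The rest of the pathway was read from 5 lists by role with 82 genes, of which 71 had a mean of at least 10 and were tested. At 500 nM, 19 of the 71 were lower and 4 were higher, or 32.4% in either direction, where 17.8% of all genes were called. At 50 nM, 12 were lower and 0 higher (16.9% beside 6.00%), and 11 of these 12 were also among the 19 at 500 nM. At 5 nM, 7 were lower and 2 higher (12.7% beside 2.18%), and at 0.5 nM, 2 were lower and 2 higher (5.63% beside 1.17%). The lists were written by role with earlier results of these data known, so these shares are not independent evidence of a direction. Of the 11 genes below the filter, 5 (TNF, LTB, CCL5, SELE and TAP1) were listed at 0 in every library, and each of them except SELE has a copy on an alternate contig of the genome, where shared reads may go uncounted.

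Target genes of the pathway made up 12 of the 19 that were lower and 2 of the 4 that were higher at 500 nM, out of 26 tested. CSF1, the growth factor of macrophages, had 11451, 10969 and 10610 normalized counts in DMSO and 4234, 3897 and 4034 at 500 nM, which gave -1.44 ± 0.06 (log2, adjusted p = 5.6e-12). IL6, an inflammatory cytokine, had 551, 536 and 538 in DMSO and 230, 282 and 294 at 500 nM (-1.02 ± 0.12, adjusted p = 4.8e-06). The libraries of both genes at 500 nM lay far below those of DMSO. PLAU, which encodes the urokinase protease, fell from a mean of 2825 to 1624 (-0.80 ± 0.05, adjusted p = 1.1e-09), with 31% of its exon bases shared with a gene on the opposite strand.

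IL1B went the other way. This gene of the cytokine interleukin-1 beta had 636, 674 and 601 normalized counts in DMSO, 924, 1054 and 1041 at 0.5 nM, 954, 1070.5 and 1107 at 5 nM, 678, 787 and 708 at 50 nM, and 1084, 998 and 1100 at 500 nM. All treated libraries lay above those of DMSO, with the 50 nM libraries between. The log2 differences were 0.66 at 0.5 nM (adjusted p = 1.8e-04), 0.71 at 5 nM (2.4e-05), 0.18 at 50 nM (0.17) and 0.74 at 500 nM (5.9e-07). The calls at 0.5, 5 and 500 nM were kept under all 25 alternatives. BCL2L1, an anti-apoptotic gene with 41.3% of its exon bases shared with an opposite gene, was the other target called higher at 500 nM (0.16, adjusted p = 0.023), and 4 of its 15 fits with 1 library left out lost the call.

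At the lowest doses a few further targets passed. At 0.5 nM CSF1 (-0.31, adjusted p = 0.016) and TNFAIP2 (-0.23, 0.010) were lower and PTX3, a soluble pattern receptor, was higher (0.28, 0.010), but PTX3 was lower at 500 nM (-0.49, 7.1e-07). These 3 calls at 0.5 nM were lost without DMSO replicate 1, that of CSF1 also without DMSO replicate 2 or 0.5 nM replicate 1, and those of TNFAIP2 and PTX3 also without DMSO replicate 3. At 5 nM IL6 (-0.64, 0.0069), CXCL1 (-0.32, 0.036), CXCL8 (-0.28, 0.032), CSF1 (-0.28, 0.014), SOD2 (-0.20, 0.025) and TNFAIP2 (-0.17, 0.024) were lower. Of these only IL6 kept its call whichever library was left out. Each of the others lost it in 4 to 6 of the 15 fits, all of them fits without a DMSO or a 5 nM library.

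Among the other subunits and IkB proteins, BCL3 had the largest difference of the 5 tested. BCL3 is an IkB-like protein that binds p50 and p52 dimers in the nucleus. Its normalized counts were 1004, 1145 and 1124 in DMSO, 869, 922 and 850 at 0.5 nM, 731, 835 and 871 at 5 nM, 615, 692 and 608 at 50 nM, and 530, 423 and 488 at 500 nM. At every dose its libraries lay below those of DMSO, with log2 differences of -0.31 (adjusted p = 0.090, not past the test), -0.43 (0.0098), -0.77 (4.3e-06) and -1.19 ± 0.08 (6.0e-09) from the lowest dose to the highest. The call at 5 nM did not survive the omission of DMSO replicate 2, of DMSO replicate 3 or of 5 nM replicate 1, with adjusted p up to 0.067. NFKBIZ, another nuclear IkB protein, was lower at 500 nM (-0.20, adjusted p = 0.026, lost in 5 of the 15 fits with 1 library left out). REL, NFKBIB and NFKBID did not pass at 500 nM, with differences of 0.001, 0.15 and 0.13. REL shares 33.3% of its exon bases with a lncRNA gene on the same strand, where reads may go uncounted.

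The remaining lists hold the genes that carry or restrain the signal. The kinase list held 10 genes, among them IKBKB, CHUK and the scaffold IKBKG of the IkB kinase complex and the adaptors TAB1, TAB2 and TAB3. Of the 10, 1 was called at 500 nM, IKBKE (-0.19, adjusted p = 0.040). Its call was lost in 5 of the 15 fits with 1 library left out. Of 19 receptor and adaptor genes, IL1R1, the receptor for interleukin-1 (-0.46, adjusted p = 0.0040), and BIRC2, which encodes cIAP1 (-0.33, 2.1e-05), were lower at 500 nM. TNFRSF12A (0.16, 0.021) and TRAF3 (0.19, 0.042) were higher, and these calls were lost in 4 and 9 of the 15 fits. BIRC2 (-0.20, 0.0060) and the TNF receptor gene TNFRSF1A (-0.16, 0.037) were the receptor and adaptor genes lower at 50 nM, the second of them in a call lost in 6 of the 15 fits. IRAK1, a kinase of interleukin-1 signalling kept in the receptor list, was higher at 5 nM (0.17, 0.049) in a call lost in 11 of the 15 fits. Of 11 other negative regulators, ZC3H12A, an RNase that degrades cytokine mRNAs (-0.43, 8.9e-06), and TAX1BP1, a partner of A20 (-0.16, 0.022, lost in 5 of the 15 fits), were lower at 500 nM, and ZC3H12A was lower at 50 nM (-0.29, 0.0016).

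**Figure D3:**
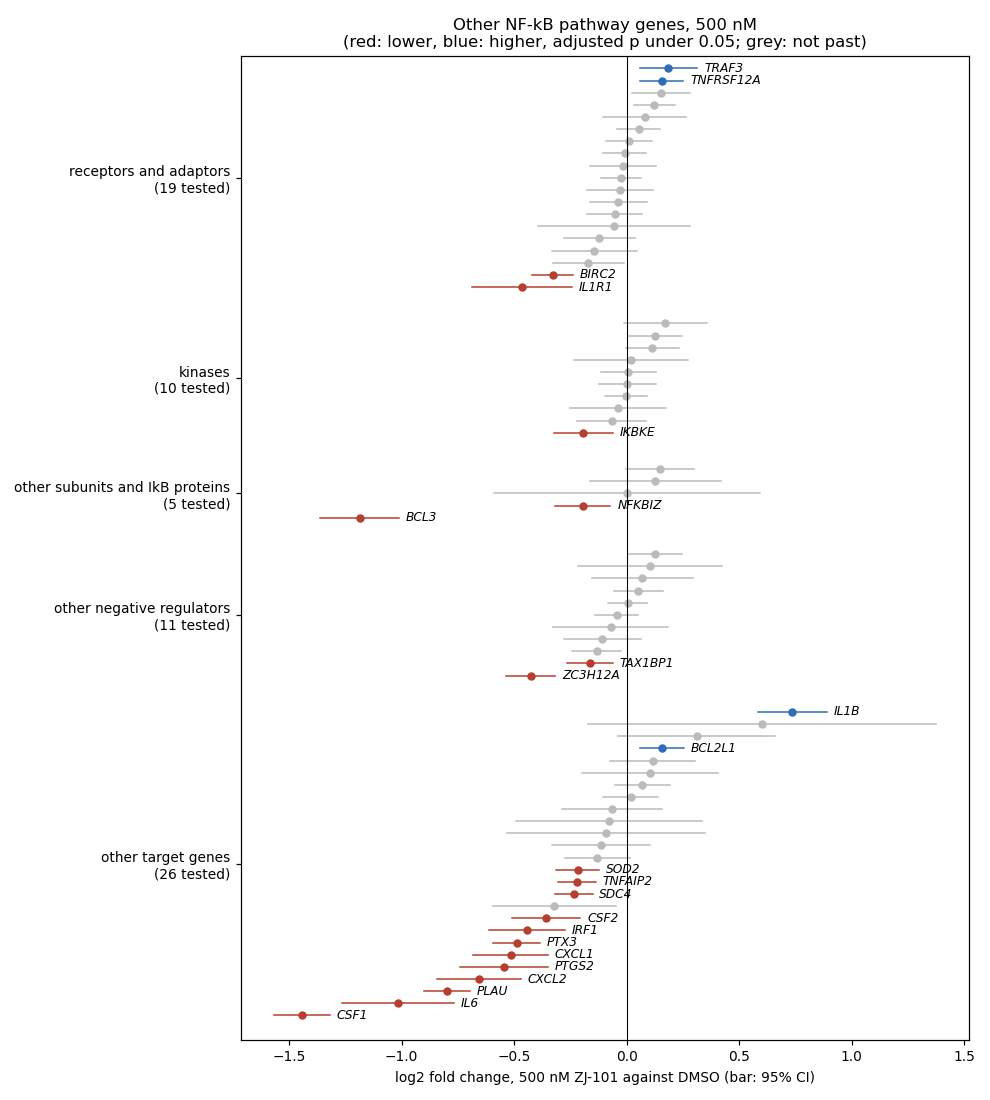
log2 fold change at 500 nM ZJ-101 against DMSO with 95% confidence intervals for the 71 tested genes of the 5 pathway lists, sorted within each list, with names where the adjusted p was under 0.05. Red genes (19) were lower and blue genes (4) higher, CSF1 at -1.44 and BCL3 at -1.19 are the farthest to the left, and IL1B at 0.74 is the farthest to the right.

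Besides ICAM1, which was not tested, ICAM5 was the gene of the ICAM family called at 500 nM. ICAM5, known as telencephalin and best studied in neurons, lies next to ICAM1 on chr19:10289952-10296778 and shares no exon bases with another gene. Its normalized counts were 156, 143 and 131 in DMSO, 120, 150 and 138 at 50 nM, and 80.5, 107 and 80.4 at 500 nM. The libraries at 500 nM lay below all others of this gene that are given here, those at 50 nM overlapped DMSO, and the log2 difference at 500 nM was -0.68 ± 0.12 (adjusted p = 6.3e-04). ICAM2 had a difference of -0.41 (adjusted p = 0.098). ICAM3 averaged 0.07 counts, and ICAM4, all of whose exon bases lie inside ICAM4-AS1, was listed at 0 in every library. The genes of the integrin chains that bind ICAM1 on leukocytes, ITGAL and ITGAM, averaged 1.9 and 0.5 counts, while ITGB2, their shared chain, averaged 443.

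Finally, 13560 genes were ranked by the distance of their profile from that of ICAM1. It was the root mean square distance between the centred log2 means of the 5 groups. The profiles were not scaled, so the size of a fall counts in this distance as well as its pattern over the doses. The nearest were CX3CL1, a membrane-bound chemokine (distance 0.11), CSF1 (0.13), the ER membrane protein gene CKAP4 (0.15), the transcriptional repressor gene HES1 (0.15) and CD14, a lipopolysaccharide co-receptor (0.15). CX3CL1 had mean normalized counts of 210 ± 6.64 in DMSO, 141 ± 10.6 at 0.5 nM and 141 ± 25.1 at 5 nM. They were 102 ± 16.5 at 50 nM and 59.4 ± 15.1 at 500 nM. Its first fall at 0.5 nM and plateau at 5 nM were like those of ICAM1. CX3CL1 was chosen for this likeness, so it is no separate finding. CD14 is a low gene, with a mean of 27.8 in DMSO and 10.5 at 500 nM. With the profile taken over the 15 libraries, 3 of these 5 stayed among the nearest 5, and HES1 and CD14 moved to ranks 14 and 51.

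The 9 NF-kB genes stood farther away in this order of 13560 genes. CSF1, at rank 2, is itself on the list of other target genes of the pathway. That list does not hold every target of NF-kB. The absence of CX3CL1 and the other near genes from it does not place them outside the pathway. BIRC3 had rank 152 and NFKBIA rank 246, followed by TNFAIP3 (1275), NFKBIE (1482), RELB (1499), NFKB2 (3802), TRAF1 (4032), RELA (5438) and NFKB1 (5785). At 500 nM the means of NFKBIA and BIRC3 were 64.6% and 59.1% of those in DMSO, beside 28.1% for ICAM1.

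**Figure D4:**
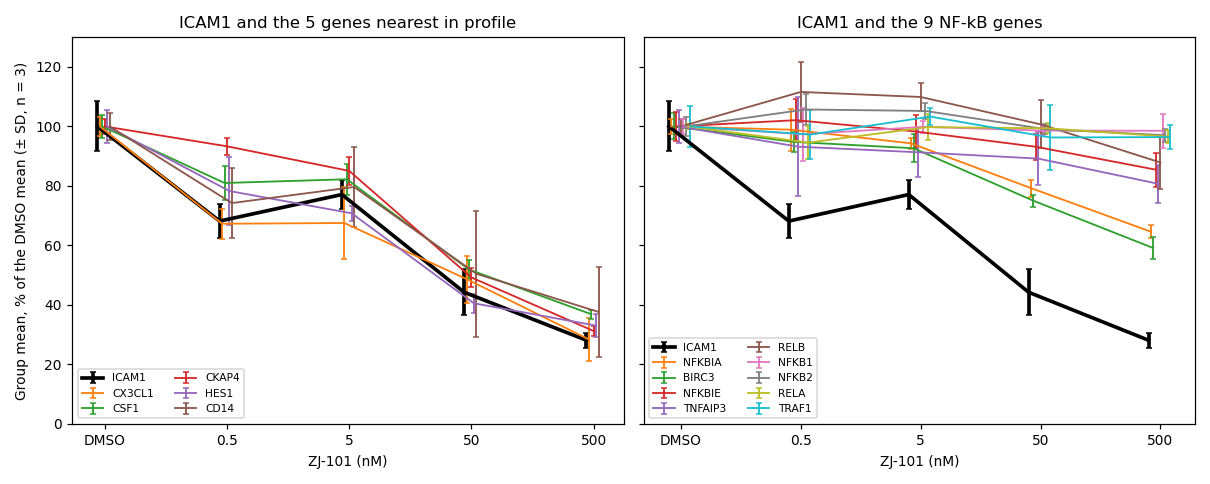
Group means (± SD, n = 3) as a percentage of the DMSO mean against the dose of ZJ-101 in nM, for ICAM1 with its 5 nearest genes (left) and with the 9 NF-kB genes (right). ICAM1 (black) stands at 68.2% at 0.5 nM and 28.1% at 500 nM, its nearest genes, chosen for their likeness, spread from 67.3% (CX3CL1) to 93.3% (CKAP4) at 0.5 nM and from 28.4% to 37.6% at 500 nM, and BIRC3 and NFKBIA stand at 59.1% and 64.6% at 500 nM.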

How the data were processed

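Poly-A RNA of 15 libraries was sequenced by the authors as paired reads, aligned to hg38 with HISAT2 and counted per gene with htseq-count. The signal values that the authors deposited are these counts divided by a DESeq2 size factor per library. Strandedness and tool versions are not given in the sources used here. Dividing by the smallest step gave whole reads for 100.0% of values within 0.001, and 1 line without a gene was left out. No libraries were duplicates (chi-square per degree of freedom within groups of 2.04 to 16.5).

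The test was limma 3.58.1 (R 4.3.3) with a variance trend on log2(normalized count + 1), restricted to the 13561 genes that averaged at least 10. A single fit held all 5 groups (10 residual degrees of freedom), and Benjamini-Hochberg adjustment ran over all genes, with 0.05 as the threshold. The fold changes are on this log scale, which understates those of low genes. The p-values measure the spread between biological replicates of 1 cell line. At 12415519 to 15284762 reads per library, the standard errors of the 10 genes lay between 0.05 and 0.11 log2 units.

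The members, the pathway lists and the tests were chosen with earlier results of these data known. Besides the 10 members, genes are named by a rule: up to 3 rises and 3 falls per list at 500 nM, any listed gene past the threshold at 0.5 or 5 nM, the called genes of short lists, the ICAM family and the 5 genes nearest to ICAM1 in profile. Alternatives were pseudocounts of 0.5 and 5, no filter or a mean of at least 50, TMM scaling, equal totals, edgeR 4.0.16 and DESeq2 1.42.0 on recovered reads, a replicate block, only the groups compared, and each library left out. Positions and overlaps came from GENCODE release 44, similar transcripts from minimap2 2.31, and promoters from RefSeq.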

Additional observations from a re-analysis of the deposited data

How the results depend on the processing

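In none of the 25 alternatives did a called member change direction. The calls of NFKBIA and BIRC3 at 50 and 500 nM were kept in all of them. Besides the omitted libraries named with each gene, NFKBIE at 500 nM lost its call with no filter (adjusted p = 0.062) and with DESeq2 (0.057), and the slope of TNFAIP3 passed with DESeq2 (0.045) and without 0.5 nM replicate 2 (0.016) or 50 nM replicate 3 (0.047). Over the 12 treated libraries alone, 5 of the 9 role-chosen genes had a lower slope, with NFKB2 (0.046) and RELB (0.011) added and the same number of genes tested. The cause of these changes was not tested.

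The counts of other pathway genes moved more. With only the compared groups in the fit, 1 was higher and 0 lower at 0.5 nM, 6 were higher at 5 nM and 1 was higher at 50 nM. With no filter, 1 was higher and 3 lower at 5 nM and 1 was higher at 500 nM. At 5 nM 1 was higher with equal totals, and at 50 nM 1 was higher with a mean of at least 50 and with DESeq2. Leaving out 1 library gave 1 to 3 higher and 0 to 5 lower at 0.5 nM, 1 to 3 higher and 1 to 8 lower at 5 nM, 0 to 2 higher at 50 nM and 1 to 6 higher at 500 nM. Of the 5 genes nearest to ICAM1, 3 remained so over the 15 libraries.

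Same-numbered libraries of different groups did not deviate together (correlations of -0.085 to 0.096 over 30 pairs), so the numbers do not pair them. With the replicate block, TNFAIP3 at 500 nM passed (adjusted p = 0.029), its slope passed (0.030), and 4 of the 9 role-chosen genes were lower at 500 nM. With 3 libraries a group, the smallest difference from DMSO that was called among the members was -0.23 (NFKBIE), and -0.31 (TNFAIP3, SE 0.11) was not.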
